A study of Arabidopsis thaliana with 6 samples.

Results

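The genes described here encode proteins of the small, 40S subunit of the cytosolic ribosome of Arabidopsis thaliana. They were chosen as a list of 60 loci for the proteins S3 to S24 and 1 gene of S25 with their paralogues. Of the 60, 34 were represented by a probe set for that gene alone and are the members measured here, out of 13286 genes with such a probe set on an array of 22810 probe sets. A further 11 loci shared 5 probe sets with a paralogue, and the other 15 were not matched to a probe set. Neither group was analysed as members. Of the 34, 33 passed the filter on low signals, and AT2G39590 (S15a), named after its values were seen, did not, with signals of 9.73 to 30.9. The 33 tested genes cover 18 proteins. Protein names follow common usage, since the annotation used here gives most of these loci no name beyond the locus.

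The 40S subunit binds messenger RNA and holds the site where codons are read, and it is built from a single ribosomal RNA and a full set of ribosomal proteins. In Arabidopsis each of these proteins is encoded by a small family of paralogous nuclear genes, which are usually most active in growing and dividing tissue. The proteins are made in the cytosol, carried to the nucleolus and assembled there with ribosomal RNA. Because a subunit needs every protein, the genes are often transcribed in a coordinated way, while single paralogues can differ in where and when they are active.

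RNA was taken from whole seedlings at 14 days, grown in constant light to 4 rosette leaves, in a study of nuclear gene expression when chloroplast division is inhibited. There were 3 groups with 2 arrays each. The platform was ATH1, an Affymetrix array of short oligonucleotides with several probes per transcript. The control group carried the empty estradiol-inducible vector PER-10 in a background labelled Ler-0, and was sprayed with 2 µM estradiol at day 13, 24 h before harvest. The temporal induction group, labelled Ler-1, received a single spray at the same day and dose. On control labels the inducer is spelled 17-B-estradiol, on those of induced seedlings 7-B-estradiol. The prolonged induction group, also Ler-1, was sown on 2 µM of it and then sprayed at intervals of 24 h up to day 14. All 3 groups were thus given the inducer, but only the prolonged group from sowing. The labels do not name the induced transgene, and they describe no induced-line seedlings without inducer. Control and induced groups thus differ in line as well as in induction, and these cannot be told apart. No empty-vector seedlings had the inducer from sowing. Prolonged seedlings and controls thus also differ in the length of exposure to estradiol, which cannot be told apart either. The labels do not state whether the replicate arrays came from different cultures. The p-values therefore measure only the spread between these arrays, which may be technical.

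The deposited values are intensity signals scaled per array, with medians of 53.1 to 58.8. Leaf genes were high on every array, with RCA (AT2G39730, Rubisco activase) at 8959 to 14256. Between the 2 arrays of a group, log2 signals correlated at 0.885 to 0.904 (across probe sets, which are not independent of each other). Control arrays correlated with induced arrays at 0.868 to 0.8844, just below the lowest value within a group (0.8849, in controls). Prolonged arrays correlated with temporal arrays at 0.897 to 0.904, within the range found inside groups. The tested 40S genes were mostly strong signals: 25 of 33 lay in the top 10% of tested probe sets. Results below are log2 fold changes from limma on all 6 arrays, with the standard error (SE) of the fit. A gene passed where its p, adjusted by Benjamini-Hochberg over all 15922 tested probe sets, was under 0.05. In bulk tissue, fewer cells of a type and less RNA per cell cannot be told apart.

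After prolonged induction, 8 of the 33 tested 40S genes fell against control and 0 rose in limma, where 3.18% of all tested probe sets fell and 3.77% rose. The 8 genes encode S3a, S4, S7, S10, S14, S17, S19 and S21, and their signals went to between 0.564 and 0.682 times the control level. The members' share was 24.2%. Among the 1593 probe sets of the top 10% by signal, 17.7% fell, and of the 25 members in that range 7 did. Over the 33 genes the median log2 fold change was −0.36, beside −0.02 over all tested probe sets and −0.08 over the top 10%. Both prolonged arrays lay below both control arrays for 23 of the 33 genes (69.7%), where the share was 24.6% over all tested probe sets and 41.7% in the top 10%. At an unadjusted p under 0.05, 17 genes were lower and 2 higher, where all tested probe sets gave 9.58% and 10.4%. Among the 1593 probe sets of the top 10%, 467 were lower and 330 higher, and of the 25 members there 15 and 2. None of these shares was tested as a set. The count of 8 became 4 without control replicate 1, 5 without control replicate 2, prolonged replicate 1 or after median centring, and 0 without the intensity trend of the fit.

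The members' median lay below 0 on every induced array. Relative to each gene's control mean, it was −0.32 and −0.39 log2 units on the 2 prolonged arrays and −0.21 and −0.17 on the 2 temporal arrays. The control arrays stood at −0.02 and 0.02, and the median over all tested probe sets stayed between −0.04 and 0.03 on all 6 arrays. The spread of this members' median between arrays of a group was 0.0391 (SD, pooled over 3 groups of 2 arrays).

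**Figure D1:**
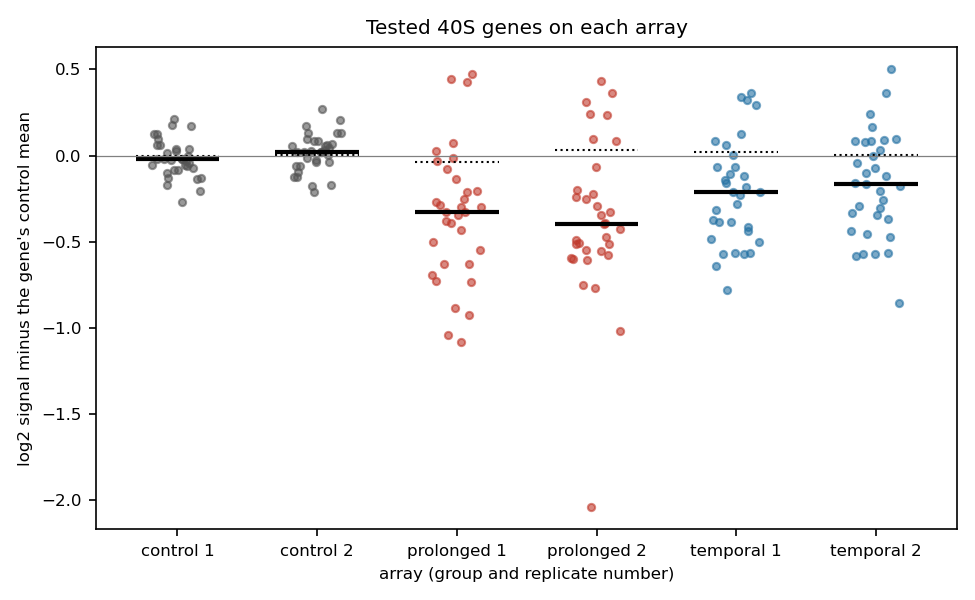
Log2 signal of each of the 33 tested 40S genes on each of the 6 arrays, minus the mean of that gene's 2 control arrays (points). Thick lines are the members' medians, from −0.32 and −0.39 on the prolonged arrays to −0.21 and −0.17 on the temporal arrays, and dotted lines the median of all tested probe sets. The control arrays mirror each other by construction.

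Among proteins of the head of the subunit, 12 genes were tested, 3 fell and the median was −0.34. AT5G61170 encodes S19, which in yeast and human is needed to process the precursor of the small-subunit RNA. Its signal was 1368 and 1300.2 in controls, 721 and 783 in prolonged seedlings, and 902 and 896 in temporal seedlings. Both induced groups lay below both controls and did not overlap with each other. The log2 fold change in prolonged seedlings was −0.83 ± 0.12 (SE), with an adjusted p of 0.00259 in limma, the smallest among the members.

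AT5G52650 encodes S10, a head protein near the path where messenger RNA enters. It read 2261 and 2144 in controls, 1159 and 1543 in prolonged seedlings, and 1626 and 1488 in temporal seedlings. The prolonged arrays were lower than both controls but differed widely from each other, and they overlapped with the temporal arrays. The fall in prolonged seedlings was −0.72 ± 0.15 (adjusted p = 0.0156). AT3G10610, for S17, another head protein, read 238 and 285 in controls, 126 and 171 in prolonged seedlings and 151 and 190.0 in temporal seedlings. Its log2 fold change of −0.82 ± 0.22 lay at the edge of the threshold (adjusted p = 0.0497). The gene passed in 6 of 16 alternative settings, none of which left out an array. They include a setting that repeats the main fit for the members.

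Of the other head genes, AT3G47370 (S20) had the largest difference. Its control arrays read 619 and 488, its prolonged arrays 329.97 and 438, and its temporal arrays 371 and 396, so all 4 induced arrays were below both controls. The log2 fold change in prolonged seedlings was −0.53 ± 0.18 and did not pass (adjusted p = 0.115). Both S12 genes, AT1G15930 and AT2G32060, had nearly equal log2 fold changes of −0.32, without passing. AT5G35530 (S3), whose protein lines the messenger RNA entry channel, stood at −0.11, and AT3G04230 (S16) at 0.12. The sign of each of the latter 2 turned in some alternative settings, so they have no settled direction.

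Among proteins of the body and platform, 21 genes were tested, 5 fell and the median was −0.39. The difference between head and body was not tested. AT3G04840 encodes S3a, which sits on the platform beside the messenger RNA exit. It read 1516 and 1564 in controls, 996 and 914 in prolonged seedlings, and 1038 and 1037 in temporal seedlings. All 4 induced arrays were far below both controls, and its prolonged log2 fold change was −0.69 ± 0.12 (adjusted p = 0.00644).

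AT3G11510 encodes S14, a protein of the platform. Its signals were 2119 and 2294 in controls, 1364 and 1457 in prolonged seedlings, and 1573 and 1630.02 in temporal seedlings. The 3 groups did not overlap, with prolonged lowest, and the prolonged log2 fold change was −0.65 ± 0.12 (adjusted p = 0.00899). AT5G16130, for S7, showed the same order: 1741 and 1852 in controls, 1346 and 1391 in temporal seedlings, and 1159 and 1204 after prolonged induction, a change of −0.60 ± 0.12 (adjusted p = 0.0120).

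AT5G07090, for S4 of the subunit body, read 1037 and 1069.5 in controls, 635 and 750.3 in prolonged seedlings, and 846 and 703 in temporal seedlings. The induced groups overlapped with each other but not with the controls, and the prolonged change was −0.61 ± 0.14 (adjusted p = 0.0287). AT3G53890, for S21, which sits on the side of the subunit that faces the solvent, read 961 and 808 in controls, 622 and 581 in prolonged seedlings, and 679 and 699.9 in temporal seedlings. Again no induced array reached a control, and the prolonged change was −0.55 ± 0.14 (adjusted p = 0.0359).

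**Figure D2:**
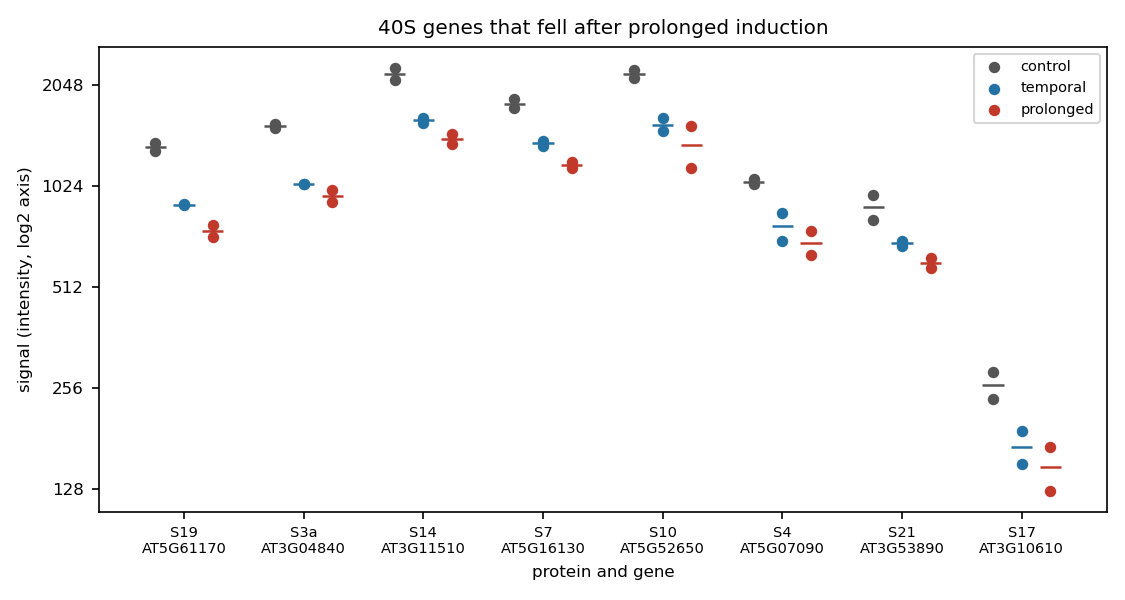
Signal on a log2 axis of the 8 genes that fell after prolonged induction, with 2 arrays per group (points) and their mean (short lines), ordered by p. In each gene both prolonged and both temporal arrays lie below both control arrays, and the prolonged mean is lowest. The genes were chosen for their prolonged fall, and both induced groups are set against the same controls. The pattern is therefore no separate support for that fall.

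The other 16 body and platform genes did not pass. AT2G36160, a second S14 gene, read 2691 and 2645 in controls, 2129.9 and 1826 in prolonged seedlings and 2389.7 and 2378 in temporal seedlings. Its prolonged log2 fold change was −0.44 ± 0.13 (adjusted p = 0.0644), and it passed in 2 alternative settings. AT2G17360 (S4) stood at −0.43 ± 0.15 and AT4G30800 (S11), with signals of 113 and 150 in controls against 89.0 and 64.0, at −0.78 ± 0.30. The largest difference of all, −1.22 ± 0.76 for AT5G59240 (S8), rested on weak signals of 42.6 and 33.4 in controls and 28.7 and 9.16 after prolonged induction. Its 95% interval ran from −2.90 to 0.47, so neither its size nor its direction is settled.

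In all, 28 of the 33 genes had a log2 fold change below 0 in prolonged seedlings, where 51.5% of all tested probe sets did. The 20 that were below 0 without passing ran from −1.22 to −0.06. The 5 above 0, named after their values were seen, were AT4G34670 (S3a, 0.42), AT3G04920 (S24, 0.34), AT5G27700 (S21, 0.33), AT3G04230 (S16, 0.12) and AT5G39850 (S9, 0.08). None of the 5 passed.

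**Figure D3:**
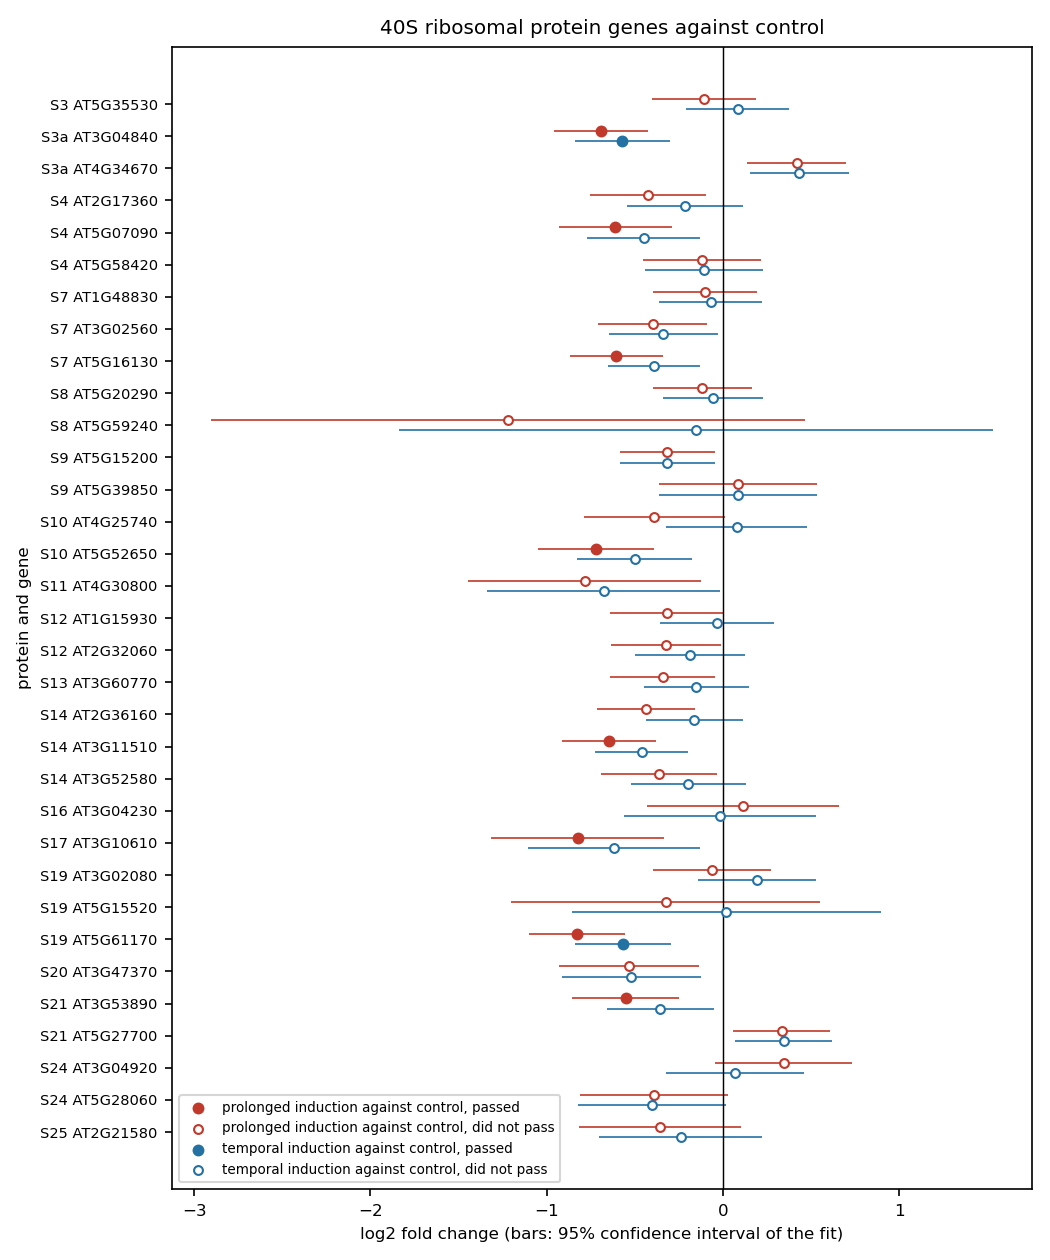
Log2 fold change of each of the 33 tested 40S genes against control, in the order of the proteins, with the 95% confidence interval of the fit. Red is prolonged and blue temporal induction, and filled points passed. The 8 filled red points lie between −0.83 and −0.55, and S3a, S9, S21 and S24 have a gene on each side of 0.

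Paralogues of a protein were compared by the ratio of their signals within each array, which does not change with the scale of the array. The ratio is given as log2 relative to its control mean, so it shows unequal change and says nothing of which gene is more active. There were 19 pairs from 11 families with at least 2 tested genes. In 7 of these families a gene fell in prolonged seedlings, and in each of the 7 exactly 1 gene did so. That count alone does not show that paralogues differ. With 2 arrays against 2 the exact two-sided permutation p cannot be below 0.333, so no pair can pass a threshold, and the pairs below are described by their values.

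The widest divergence was in S3a. AT3G04840 fell as described, whereas AT4G34670 read 886 and 976 in controls, 1292 and 1196 in prolonged seedlings, and 1197 and 1318 in temporal seedlings. All 4 induced arrays of AT4G34670 thus lay above both controls. Its log2 fold changes were 0.42 ± 0.13 (adjusted p = 0.0796) and 0.43 ± 0.13 (adjusted p = 0.122), and did not pass. The ratio of the first gene to the second was 0.05 and −0.05 in controls, −1.10 and −1.12 in prolonged seedlings, and −0.93 and −1.07 in temporal seedlings. The change was −1.11, or 2.16-fold, in prolonged seedlings and −1.004 in temporal seedlings, against a spread of 0.0689 within groups (SD; exact p = 0.333, the smallest possible). Over 16 alternative settings the prolonged change stayed between −1.16 and −1.06. Only quantile normalization, cyclic loess, the offset and leaving out a control or prolonged array can alter it, so the other settings are no check.

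S21 showed the same arrangement. AT5G27700 read 997 and 1002 in controls, 1346 and 1178 in prolonged seedlings and 1249.6 and 1288 in temporal seedlings, again with every induced array above both controls. Its prolonged log2 fold change was 0.33 ± 0.13 (adjusted p = 0.1602). The ratio of AT3G53890 to AT5G27700 was 0.13 and −0.13 in controls, −0.93 and −0.84 after prolonged induction and −0.70 on both temporal arrays. The changes of −0.88 and −0.70 compare with a within-group SD of 0.113. AT4G34670 and AT5G27700 passed as rises in prolonged seedlings after quantile normalization (adjusted p = 0.0166 and 0.0295) and after cyclic loess (0.0272 and 0.0430), and in no other of the 16 settings. In temporal seedlings AT4G34670 passed after quantile normalization (adjusted p = 0.0367).

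In S19, AT3G02080 read 845 and 1016 in controls, 804 and 982 in prolonged seedlings and 1135 and 992 in temporal seedlings, so it overlapped with its controls in both inductions. Its log2 fold change of −0.06 in prolonged seedlings had a 95% interval from −0.40 to 0.27 and changed sign in 4 of 16 settings. The ratio of AT3G02080 to AT5G61170 moved from −0.17 and 0.17 in controls to 0.68 and 0.85 in prolonged seedlings and 0.86 and 0.67 in temporal seedlings. The third S19 gene, AT5G15520, gave 184 and 189 in controls but 88.0 and 252 in prolonged seedlings, and its ratio to AT5G61170 overlapped between prolonged and control arrays.

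S24, a protein of the subunit body, had AT3G04920 at 254 and 263 in controls, 352 and 306 in prolonged seedlings and 240.5 and 305 in temporal seedlings. AT5G28060 read 503 and 424 in controls, 384 and 324 in prolonged seedlings and 296 and 414 in temporal seedlings. Neither gene passed, but their ratio moved by 0.73 in prolonged and 0.47 in temporal seedlings, with a within-group SD of 0.136. The S8 pair moved by 1.10, on prolonged ratios of 0.36 and 1.84 that rest on the weak AT5G59240.

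In the remaining families named here no pair ranked among the 6 most divergent. In S7 the genes AT1G48830, AT3G02560 and AT5G16130, given in full after their values were seen, had prolonged log2 fold changes of −0.10, −0.40 and −0.60. The ratio of the first to the last was 0.50 and 0.51 in prolonged seedlings, outside the controls at 0.07 and −0.07. In S14 the 3 genes were at −0.44, −0.65 and −0.36, all lower on both prolonged arrays than on both controls. The S12 pair changed its ratio by 0.0072, with a within-group SD of 0.206. In 5 of the 19 pairs the ratio moved by less than 0.25.

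**Figure D4:**
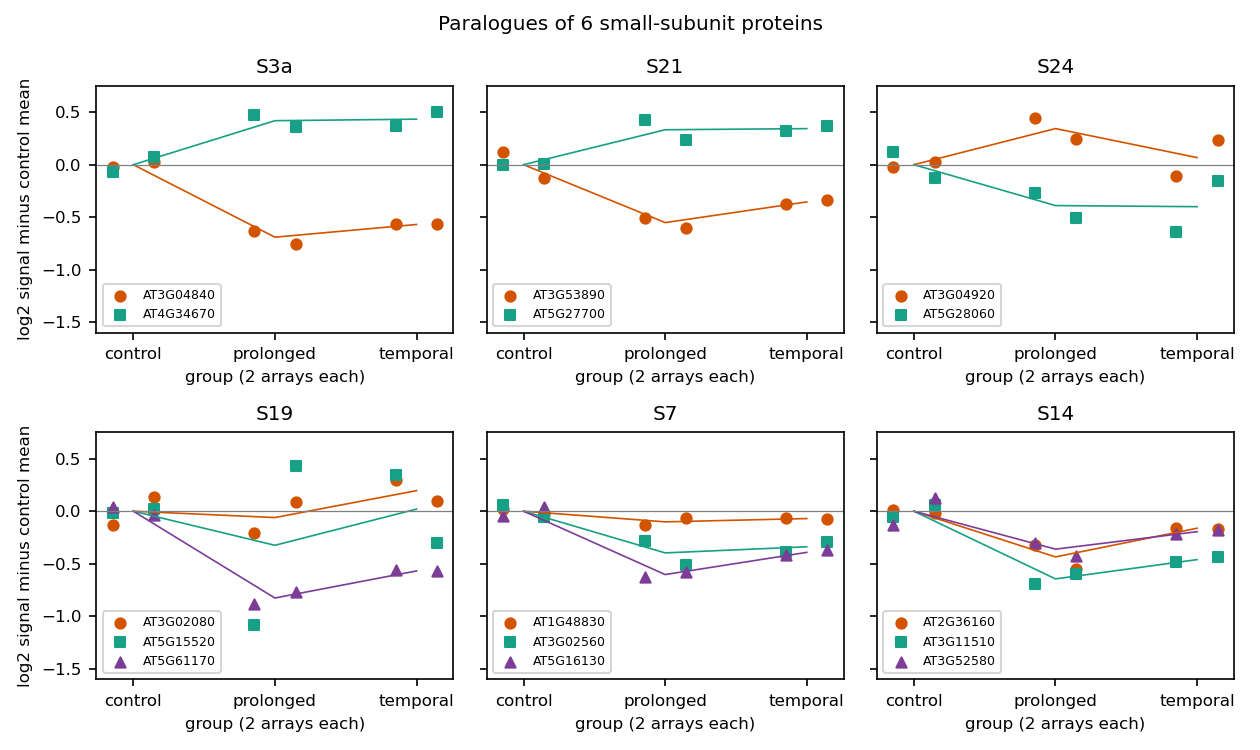
Log2 signal minus the control mean for the paralogues of 6 proteins, with 2 arrays per group (points) and lines joining the group means. In S3a and S21 1 gene lies above its controls on all 4 induced arrays and its paralogue below, whereas the S14 genes lie below control together.

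After a single spray 24 h before harvest fewer genes passed. In temporal seedlings 2 of the 33 genes fell against control and 0 rose in limma, where 0.729% of all tested probe sets fell and 1.7% rose (5.52% fell in the top 10% by signal). The 2 were AT3G04840 (S3a), with a log2 fold change of −0.57 ± 0.12 (adjusted p = 0.0352), and AT5G61170 (S19), with −0.57 ± 0.12 (adjusted p = 0.0382). The median over the 33 was −0.19, beside −0.0017 over all tested probe sets and −0.06 over the top 10%. Of the 33 genes 25 lay below 0, where 50.2% of all tested probe sets did. In the top 10% 894 of the 1593 probe sets lay below 0, and 20 of the 25 members there. At an unadjusted p under 0.05, 12 genes were lower and 2 higher, where all tested probe sets gave 6.51% and 8.23%. Among the 1593 probe sets of the top 10%, 353 were lower and 267 higher, and of the 25 members there 10 and 2. Both temporal arrays lay below both controls for 19 genes, or 57.6%, where all tested probe sets gave 23.6% and the top 10% 39.7%.

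Neither call is firm: no gene passed when any control or temporal array was left out, nor after median centring, without the filter or without the intensity trend. The largest differences that did not pass were those of AT4G30800 (−0.68 ± 0.30), AT3G10610 (−0.62 ± 0.22), AT3G47370 (−0.52 ± 0.18), AT5G52650 (−0.50 ± 0.15) and AT3G11510 (−0.46 ± 0.12). Their adjusted p ran from 0.0813 to 0.326. The 2 induced groups were set against the same control arrays, so values on both sides share any error of those arrays.

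Set directly against each other, the induced groups showed no 40S gene that passed: 0 fell and 0 rose in limma, where 0.0502% of all tested probe sets were lower and 0.0377% higher in prolonged seedlings (0.314% lower in the top 10% by signal). At an unadjusted p under 0.05, where all tested probe sets gave 3.44% lower and 2.46% higher, there was 1 member, AT4G25740 (S10), with 337 and 358 in prolonged against 495.5 and 466 in temporal seedlings (log2 fold change −0.47 ± 0.18, adjusted p = 0.758). AT1G15930 (S12) stood at −0.28 and AT3G04920 (S24) at 0.28, AT5G59240 at −1.07 ± 0.76 and AT5G15520 at −0.35 ± 0.40. The median was −0.16, and 30 of 33 genes were lower in prolonged seedlings, where 51.2% of all tested probe sets were. In the top 10% by signal the median was −0.02. There 879 of 1593 probe sets were lower, and 24 of the 25 members in that range. Without prolonged replicate 2 the median of the 33 genes was −0.080. For 23 of the 33 genes the mean signal was highest in controls, then temporal, then prolonged seedlings, an order that 23.7% of all tested probe sets showed, but a difference between the lengths of induction was not found for any single gene.

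Related genes were read from lists made with the members. Of 10 tested genes for other 40S proteins, AT3G56340 (S26) fell after prolonged induction (log2 fold change −0.63, adjusted p = 0.018) and 9 did not pass, and the median was −0.41. Of 78 tested genes for proteins of the large, 60S subunit, 29 fell and 1 rose, a share of 37.2% falling, with a median of −0.51. For both lists, 3.18% of all tested probe sets fell and 3.77% rose, and 17.7% fell in the top 10% by signal. The gene that rose was AT3G28500, for the stalk protein P2, from 211 ± 17.9 to 418 ± 28.2 (SD, n = 2 arrays). The 60S falls with the smallest p were AT5G47700 and AT4G00810, both for stalk protein P1, and AT1G77940 (L30), with log2 fold changes of −0.84, −0.91 and −0.79. In temporal seedlings 6 of the 78 fell and 1 rose, where all tested probe sets gave 0.729% and 1.7% (5.52% fell in the top 10%). Whether the subunits differ was not tested.

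Of 7 tested genes for ribosome assembly factors 0 passed in limma in prolonged or temporal seedlings, with medians of −0.32 and −0.09. At an unadjusted p under 0.05, 1 was lower in each, where all tested probe sets gave 9.58% and 6.51%. The lowest p was that of AT3G15460, a homologue of yeast BRX1, at −0.80. Of the TOR pathway, which promotes synthesis of ribosomal proteins, only RAPTOR1 (AT3G08850) of 6 listed genes was matched to a probe set, with 110.5 and 101.5 in controls, 169.96 and 182 after prolonged and 193 and 192 in temporal seedlings. It did not pass in prolonged (adjusted p = 0.0529) or temporal seedlings (adjusted p = 0.0503). Of 3 tested translation factor genes, AT5G19510, a subunit of elongation factor 1B, fell after prolonged induction from 2330 and 2349 to 1575 and 1420.3. Another gene of that factor, AT5G12110, passed as a rise in temporal seedlings (log2 fold change 1.45). Over all tested probe sets, 3.18% fell in prolonged seedlings and 1.7% rose in temporal seedlings. In prolonged seedlings AT5G12110 stood at 1.12, at an unadjusted p under 0.05 in limma, without passing. The eIF4A gene AT1G54270 stood at −0.06 in prolonged seedlings. Among the 5 probe sets shared by several 40S genes, 2 fell after prolonged induction.

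Other measures differed between the groups as well, and their part in the 40S result was not tested. The probe set for 25S ribosomal RNA, of the large subunit, gave 2701 and 4532 on control arrays, 1026 and 1674 on prolonged arrays, and 2994 and 1222 on temporal arrays. The actin 3′ to 5′ ratio, a sign of RNA integrity, was 4.19 on both control arrays, 6.14 and 4.45 on prolonged arrays, and 3.19 and 5.22 on temporal arrays. The same ratio for GAPDH was 1.82 and 2.38 in controls, 2.22 and 2.67 in prolonged and 2.43 and 2.48 in temporal seedlings, and for ubiquitin it was 1.58 to 1.87 over all arrays. Of 4 root markers 3 were matched to a probe set, and their summed signal was 4172 to 4813 in controls, 2679 to 3872 after prolonged induction and 3698 to 3784 in temporal seedlings. PYK10 (AT3G09260), EXPA7 (AT1G12560) and EXPA18 (AT1G62980) were each lower on all 4 induced arrays than on both controls. Of all tested probe sets, 24.6% were lower than both controls on both prolonged arrays and 23.6% on both temporal arrays. The prolonged log2 fold changes of the 3 markers were −0.45, −1.36 and −1.93, all at an unadjusted p under 0.05 in limma, and none passed. At that level 9.58% of all tested probe sets were lower. The leaf gene PRK (AT1G32060, phosphoribulokinase) gave 3332 and 2989 on control arrays, 2039 and 1689 on prolonged arrays and 2074 and 2023 on temporal arrays, and RCA was also lower on all 4 induced arrays. None of the 8 markers of dividing cells, in which ribosomal protein genes are usually most active, was matched to a probe set through the table of names, so they were not analysed here.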

How the data were processed

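Whole-seedling RNA was measured on 6 arrays, 2 per group. The authors deposited linear intensity signals, made with MAS5 and GCOS per the submitters' processing notes, with no versions in the sources used here. Labelling was one-cycle, per the labels' protocols. The trimmed mean was 100.01 on every array, so the authors' signals had been scaled before deposit. Detection calls were not used here, and the number of arrays limits precision (median SE 0.32 log2 units).

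Probe sets were matched to loci by gene identifier through a platform table and the TAIR10.1 annotation: of 22746 probe sets for genes, 13513 had 1 symbol, 503 several and the rest none. All 34 members sit on probe sets with the plain suffix used for a single transcript. Signals were taken to log2, the lowest 30% by mean were left out, and 15922 were fitted with limma 3.58.1 (R 4.3.3; intensity trend, 3 residual and 7.96 prior degrees of freedom). Alternatives were quantile normalization, median centring, cyclic loess, an offset of 16, no filter, the lowest 50% left out and no trend. Others were only the groups compared, the replicate block, each array left out, and shared-type probe sets left out. This last setting reused the main fit, so for the members it could not differ from it.

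The members and lists were chosen with earlier results of these data known. Named were members that passed, up to 20 by p, the 5 largest differences that did not, and the 6 most divergent pairs in prolonged seedlings; others are marked in the text. Of related lists, up to 4 tested genes each were named. Promoter motifs were planned but not analysed here. Tested on simulated data of 15922 probe sets, the fit's 95% intervals held 95.0% of true values. The noise was drawn as independent and normal, with variances from the prior that the fit had estimated. Such coverage was therefore built in, and it checks the code but not the intervals for these arrays. In the simulated prolonged comparison 5% of 100 changes of 1 log2 unit and 33% of 100 of 2 were found, with 2 of 40 calls false. These rates were not split by signal level, so they do not give the power for the members, most of which had strong signals. The members that passed in prolonged seedlings had changes from −0.83 for AT5G61170 (SE 0.12) to −0.55 for AT3G53890 (SE 0.14). Figures used matplotlib 3.10.9.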

Additional observations from a re-analysis of the deposited data

How the results depend on the processing

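In prolonged seedlings the number of 40S genes called against control was 8. It was 5 after median centring and 0 without the intensity trend, where 47 of all probe sets passed against 1107, and 4 to 6 when an array was left out (4 without control replicate 1, 5 without control replicate 2 or prolonged replicate 1), with the lone array of a group assumed to vary like the others. After quantile normalization or cyclic loess it was 8, of which 6 fell and 2 rose. The members' median ran from −0.40 to −0.31 over the arrays left out and stayed below 0 in all settings. Leaving out shared-type probe sets reuses the main fit for the members, so it is no separate check in the counts of settings given here. AT5G61170, AT3G04840 and AT3G11510 passed in 15 of 16 settings, failing without the trend; AT5G16130 passed in 14, AT5G52650 in 11, AT5G07090 in 9, AT3G53890 in 7 and AT3G10610 in 6.

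In temporal seedlings the count of 2 became 1 after quantile normalization (a rise), 1 after cyclic loess, 1 with the replicate block, and 0 after median centring, without the filter and without the trend. With an array left out it was 0 to 2, and the median ran from −0.23 to −0.17. Between the induced groups the count was 0 in all settings, and the median ran from −0.16 to −0.080 over the arrays left out (−0.080 without prolonged replicate 2). AT5G15520 there ran from −1.10 without prolonged replicate 2 to 0.41, a reversal, without prolonged replicate 1. The cause of these changes was not tested.

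Replicate numbers did not pair the arrays: deviations of same-numbered arrays correlated at 0.012, 0.011 and −0.060 across probe sets. The replicate block gave 8 calls in prolonged seedlings and 0 between the induced groups.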
